A study of Mus musculus with 4 samples.

Results

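Cathepsins are the acid proteases of lysosomes, and 10 genes that encode them in lung macrophages and epithelium (Ctsa, Ctsb, Ctsc, Ctsd, Ctse, Ctsh, Ctsk, Ctsl, Ctss and Ctsz) were followed over the 4 arrays of the study. The members were all probes outside the control set whose gene name in the scanner files was one of these 10, which gave 18 probes for 10 of the 27195 genes named on the array. Lung RNA of C57BL/6J mice was measured on Agilent arrays of 1 colour in 4 groups: ORX/PPE, ORX/PBS, sham/PPE and sham/PBS. From the series title, which speaks of testosterone deficiency and of emphysema induced with elastase, ORX was read as orchiectomy, removal of the testes, and PPE as porcine pancreatic elastase, which digests elastic fibres. PBS is the saline vehicle, both agents were inhaled, and the labels place the samples at 3 weeks. Each group was 1 array that carried RNA pooled from 5 mice, so no spread between mice was measured, no test between 2 groups was possible, and a 2-fold difference served as the threshold.

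Values are given as scaled signal, which is the background-subtracted signal of the probe divided by the 75th percentile of its array, or as log2 differences of it. A gene with several probes is represented by its brightest. The 75th percentile lay between 829.8 and 999.2 signal units, and each array had between 20132 and 20912 genes well above background. Probes printed 10 times on the array gave a log2 SD of 0.0514 for a difference between 2 arrays, which covers spots and not mice. Markers of alveolar type 1, alveolar type 2, club and ciliated cells were above background on all 4 arrays, as the lung label requires. Transcripts of other organs differed between the pools: 9 cardiac muscle genes summed to a scaled signal of 19.9 on ORX/PPE, 40.4 on ORX/PBS, 114 on sham/PPE and 49.9 on sham/PBS, and 6 germ cell genes to 0.137, 0.126, 2.68 and 0.142 in that order. Their part in the results was not tested. PPE in ORX mice and ORX under PBS are the comparisons that do not use the sham/PPE array.

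Most cathepsins are cysteine proteases of the papain family, while cathepsins D and E are aspartic proteases and cathepsin A is a serine carboxypeptidase. They are made as inactive precursors, carried to lysosomes largely by mannose 6-phosphate receptors, switched on by acid pH, and held in check by cystatins and stefins when they escape. In the lung, macrophages carry many of them, cathepsins K, L and S can degrade elastin, cathepsin S also trims the invariant chain of MHC class II, and cathepsin H takes part in the maturation of surfactant protein B in alveolar type 2 cells.

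Promoter sequences from RefSeq on build GRCm38.p6, running from 250 bases before to 50 bases after the start, were matched for 7 of the 10 members, with 2 starts for Ctsa. Ctsb, Ctse and Ctsh had no entry. The sequences of Ctsd, Ctsk and Ctss are shown because these genes had the greatest PPE differences among the members whose probes were above background on all 4 arrays, and the second start of Ctsa because it holds a pair of CACGTG matches. Capitals mark CACGTG (the core of the site that TFEB and its relatives bind in lysosomal genes), a pair of GAAA runs with any 2 bases between them (a form of the interferon response element) and GAGGAAGT (a form of the site of the macrophage factor PU.1, which reads ACTTCCTC on the opposite strand). The motifs were chosen after the promoters had been read. The windows lie at chr7:142387778-142388077 on the minus strand for Ctsd, chr3:95498960-95499259 on the plus strand for Ctsk, chr3:95526536-95526835 on the plus strand for Ctss and chr2:164833523-164833822 on the plus strand for the second start of Ctsa.
Ctsd: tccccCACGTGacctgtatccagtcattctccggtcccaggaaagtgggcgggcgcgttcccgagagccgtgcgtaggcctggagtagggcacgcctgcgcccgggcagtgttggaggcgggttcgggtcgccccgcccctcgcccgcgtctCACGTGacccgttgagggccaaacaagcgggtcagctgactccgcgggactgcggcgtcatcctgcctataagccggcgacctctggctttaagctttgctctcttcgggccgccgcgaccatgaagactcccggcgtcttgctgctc
Ctsk: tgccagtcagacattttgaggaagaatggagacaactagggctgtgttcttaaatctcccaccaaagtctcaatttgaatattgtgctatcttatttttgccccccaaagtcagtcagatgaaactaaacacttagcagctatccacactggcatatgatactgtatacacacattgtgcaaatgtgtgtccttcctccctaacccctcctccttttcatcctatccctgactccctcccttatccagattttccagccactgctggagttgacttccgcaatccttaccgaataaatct
Ctss: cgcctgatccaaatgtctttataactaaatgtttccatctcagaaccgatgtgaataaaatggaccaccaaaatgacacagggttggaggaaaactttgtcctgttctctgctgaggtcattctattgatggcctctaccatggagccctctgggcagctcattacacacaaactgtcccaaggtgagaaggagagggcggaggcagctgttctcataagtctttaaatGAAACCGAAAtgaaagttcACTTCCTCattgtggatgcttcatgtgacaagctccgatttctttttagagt
Ctsa second start: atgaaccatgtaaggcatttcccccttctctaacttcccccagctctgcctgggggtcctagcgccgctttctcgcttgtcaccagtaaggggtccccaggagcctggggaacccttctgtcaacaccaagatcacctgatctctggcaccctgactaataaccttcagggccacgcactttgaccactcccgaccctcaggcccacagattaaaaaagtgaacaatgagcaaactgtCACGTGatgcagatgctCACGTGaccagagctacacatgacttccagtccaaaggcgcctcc
CACGTG, searched on both strands, began 245 and 98 bases before the start of Ctsd, 12 bases before and 5 bases after the second start of Ctsa, and 236 bases before the start of Ctsl. It occurs in 7.15% of all 32851 promoters of this length. The pair of GAAA runs began 21 bases before the start of Ctss and occurs in 3.44% of promoters. GAGGAAGT began 2 bases before the start of Ctss and 151 bases before that of Ctsc, and occurs in 3.20%. No match overlapped another. The AP-1 motif TGANTCA, present in 7.81% of all promoters, had no match in these windows, and the Ctsk window held none of the motifs. A match is a description of letters and not of binding.

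The effect of PPE was read in ORX and in sham mice separately. Signals of Ctsk, Ctsd and Ctss were higher on the PPE array in both surgeries, by between 1.48-fold and 2.01-fold, and those of Ctsb, Ctsl and Ctsz differed little. In ORX mice 0 of 10 members were at least 2-fold higher under PPE, where 0.695% of 21159 genes were (0 were 2-fold lower, beside 0.369%), and 2 members (Ctsd and Ctsk) were at least 1.5-fold higher, where 3.39% of genes were. In sham mice 2 members (Ctse and Ctss) were 2-fold higher or more, where 1.26% of 20859 genes were (0 were 2-fold lower, beside 0.451%), and 4 (Ctsd, Ctse, Ctsk and Ctss) at least 1.5-fold higher, where 5.05% were. No member was 1.5-fold lower in either surgery, against 2.44% of genes in ORX mice and 4.10% in sham mice. The median of the 10 members was 0.20 in ORX mice and 0.41 in sham mice, beside 0.0011 and 0.018 over all genes above background. Among the 3539 genes at least as bright as the dimmest of the 9 bright members, the median was 0.0082 in ORX mice and 0.066 in sham mice. The PPE comparisons share no array with each other. In whole lung RNA, a higher signal from more cells of a type and one from more RNA per cell cannot be told apart.

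**Figure D1:**
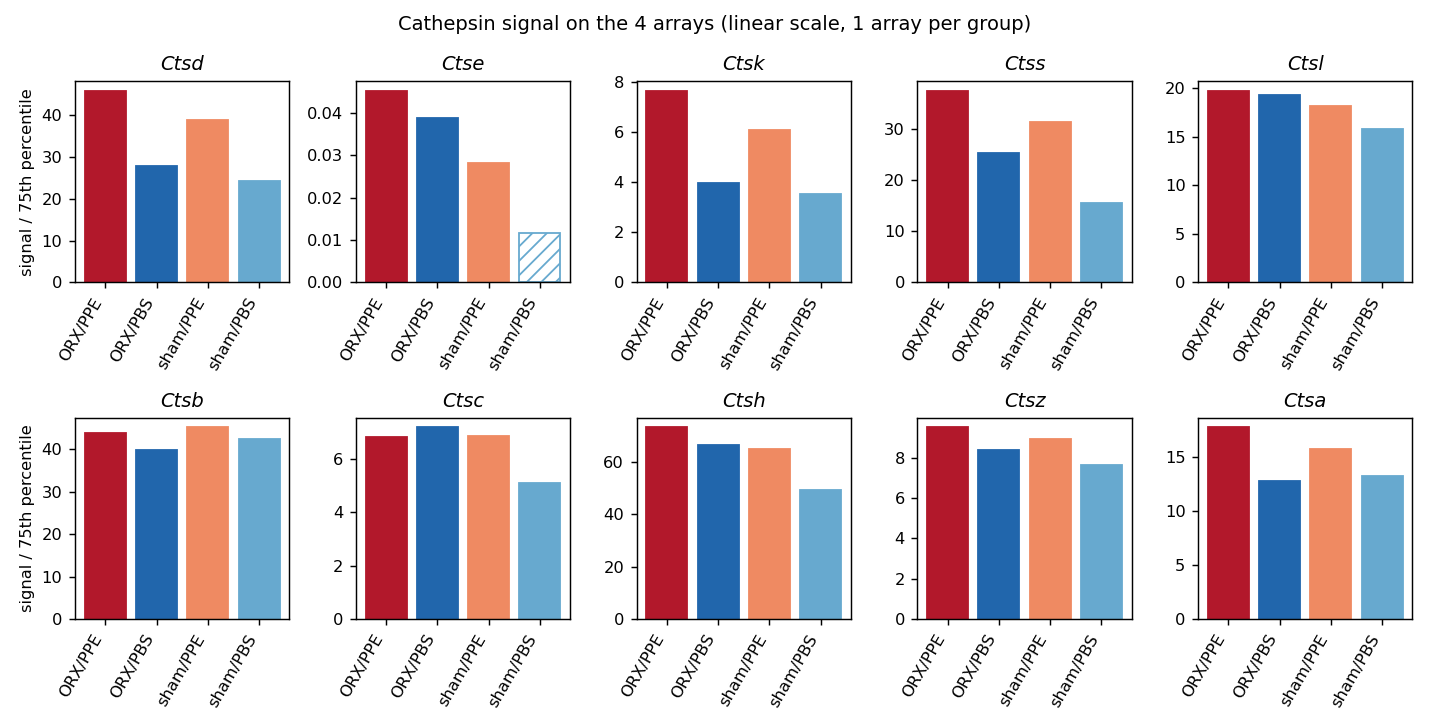
Scaled signal (signal divided by the array's 75th percentile, linear axis from 0) of the brightest probe of each cathepsin on the 4 arrays, 1 bar per array of RNA pooled from 5 mice; the hatched bar was not well above background. Ctsd, Ctsk and Ctss stand higher on both PPE arrays than on both PBS arrays, while Ctsb ranges only between 39.8 and 45.2.

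The aspartic proteases behaved unlike each other. Ctsd, the main aspartic protease of lysosomes, had a scaled signal of 45.9 on ORX/PPE, 28.0 on ORX/PBS, 38.8 on sham/PPE and 24.2 on sham/PBS. Both PPE arrays lay above both PBS arrays. The PPE difference was 0.72 (1.64-fold) in ORX mice and 0.68 (1.61-fold) in sham mice. These PPE differences were 0.031 apart, less than the spot SD of a single difference. Larger differences were seen for 291 of 19885 genes in ORX mice and for 524 of 19643 in sham mice. Ctse, an aspartic protease of endosomes found in epithelia and immune cells, was dim, with 0.0452 on ORX/PPE, 0.0388 on ORX/PBS, 0.0283 on sham/PPE and 0.0117 on sham/PBS, where it was not well above background. The raw signals behind these values were 38.9, 38.8, 23.5 and 9.96 units. For PPE, Ctse differed by 0.22 in ORX mice and was at least 2.33-fold higher in sham mice, a bound set by the dim array. With another background correction, normexp, the same differences were 0.22 and 0.45, so its 2-fold call rested on how background was removed. Only 3 of the probes printed 10 times had a signal under 50 units, as Ctse had, and these had a spot SD of 0.619 for a difference.

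Of the elastin-degrading cysteine proteases, Ctsk and Ctss had the clearest PPE differences. Ctsk, best known as the collagenase and elastase of osteoclasts and also made by macrophages and fibroblasts, had 7.67 on ORX/PPE, 3.96 on ORX/PBS, 6.10 on sham/PPE and 3.52 on sham/PBS. The groups under PPE did not overlap those under PBS. The difference was 0.95 (1.94-fold) in ORX mice and 0.79 (1.73-fold) in sham mice, and only 104 of 19885 and 357 of 19643 genes had larger ones. Ctss, the elastase of antigen-presenting cells that stays active at neutral pH, had 37.4 on ORX/PPE, 25.2 on ORX/PBS, 31.2 on sham/PPE and 15.6 on sham/PBS. Its PPE arrays also lay above its PBS arrays, and sham/PBS stood apart at the low end. The PPE difference was 0.57 (1.48-fold) in ORX mice. It was 2.01-fold in sham mice, just past the threshold. On the log2 scale that difference was 0.98 by normexp and 0.94 after quantile normalization, both under 2-fold. Ctsl, which degrades elastin and endocytosed proteins, was printed 10 times and shows what the spots resolve. Its medians were 19.8 on ORX/PPE with spots between 17.9 and 20.9, 19.6 on ORX/PBS between 17.7 and 20.1, 18.4 on sham/PPE between 16.9 and 18.8, and 15.8 on sham/PBS between 15.0 and 16.4. Only the spots of sham/PBS lay wholly below those of the other arrays. The PPE difference of Ctsl was 0.034 in ORX mice and 0.21 in sham mice. The value in ORX mice is under the SD of a difference between single spots. Means of 10 spots have a smaller error, which was not computed.

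Ctsb and the exopeptidases differed less under PPE. Ctsb, an endopeptidase that also removes dipeptides and is abundant in macrophages, had 43.9 on ORX/PPE, 39.8 on ORX/PBS, 45.2 on sham/PPE and 42.4 on sham/PBS. It had the narrowest range of the 10, and PPE differences of 0.14 in ORX and 0.091 in sham mice. In sham mice the sign turned, to -0.023, after quantile normalization. Ctsz, a carboxypeptidase, had 9.50 on ORX/PPE, 8.36 on ORX/PBS, 8.92 on sham/PPE and 7.61 on sham/PBS, with differences of 0.18 and 0.23. Both genes were higher on both PPE arrays than on both PBS arrays, by small amounts. Ctsh, an aminopeptidase, had 73.2 on ORX/PPE, 66.3 on ORX/PBS, 64.8 on sham/PPE and 49.2 on sham/PBS. Its PPE difference was 0.14 in ORX mice and 0.40 in sham mice, and the ORX/PBS array lay above sham/PPE. Ctsc, the dipeptidyl peptidase that activates the serine proteases of neutrophils and mast cells, had 6.82 on ORX/PPE, 7.19 on ORX/PBS, 6.86 on sham/PPE and 5.11 on sham/PBS. The sham/PBS array was low and the other 3 were close together, so PPE gave -0.077 in ORX mice and 0.43 in sham mice. Ctsa, the serine carboxypeptidase that also protects beta-galactosidase and neuraminidase in the lysosome, had 17.7 on ORX/PPE, 12.7 on ORX/PBS, 15.7 on sham/PPE and 13.2 on sham/PBS. Its PPE difference was 0.47 in ORX mice and 0.25 in sham mice, with the PPE arrays above the PBS arrays.

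**Figure D2:**
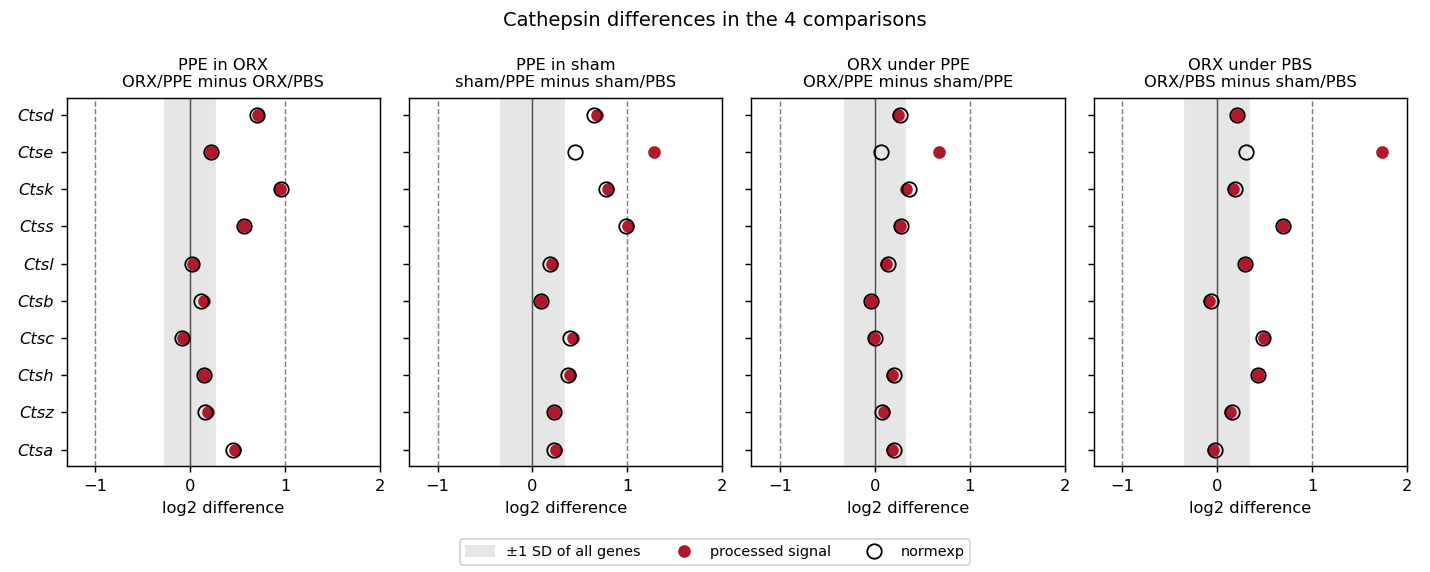
Log2 differences of the 10 cathepsins in the 4 comparisons (1 panel each, horizontal axis), from the processed signal (filled) and after normexp background correction (open), with dashed lines at 2-fold and a grey band of 1 SD over all genes. Ctsd, Ctsk and Ctss lie past the band in both PPE panels, and Ctse is the member whose filled and open points part, at 1.73 and 0.30 for ORX under PBS.

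ORX was set against sham surgery under each agent. The 2-fold threshold was passed by 0 of 10 members under PPE, where 0.322% of 20780 genes stood that much higher and 1.41% lower, and by 1 member (Ctse), which was higher, under PBS, where 0.585% of 21205 genes stood higher and 1.26% lower. At 1.5-fold there was 1 member higher under PPE (Ctse) beside 2.43% of genes, and 2 under PBS (Ctse and Ctss) beside 3.76%. No member was 1.5-fold lower under either agent, against 4.63% of genes under PPE and 5.63% under PBS. The median of the 10 was 0.18 under PPE and 0.25 under PBS, beside -0.015 and -0.0093 over all genes and -0.025 and 0.030 over the bright ones. Both ORX comparisons also share an array with each PPE comparison, so the low sham/PBS values enter the ORX difference under PBS and the PPE difference in sham mice alike.

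Ctse differed by 0.68 under PPE and was at least 3.20-fold higher under PBS by its bound, but by normexp the same differences were 0.064 and 0.30. Ctss was higher in ORX mice by 0.26 under PPE and by 0.69 (1.62-fold) under PBS, where 394 of 19958 genes had a larger difference. Ctsc differed by -0.0090 under PPE and 0.49 under PBS, and Ctsh by 0.18 and 0.43. These genes share the pattern of a low sham/PBS array. Ctsk was higher by 0.33 under PPE and 0.17 under PBS, Ctsd by 0.24 and 0.21, and Ctsl by 0.12 and 0.29. Ctsz differed by 0.091 and 0.14, while Ctsb was lower by small amounts under both agents, at -0.041 and -0.093. Ctsa was higher by 0.18 under PPE and differed by -0.048 under PBS.

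Set against all arrays at once, 8 of 10 members were highest on ORX/PPE (all but Ctsb and Ctsc), where 24.2% of the 19320 genes above background on all 4 arrays were. Ctse is counted here with its dim value. Also 8 of 10 were lowest on sham/PBS (all but Ctsa and Ctsb), where 31.3% of genes were, and 7 had both, against 11.5% of genes. Both PPE arrays lay above both PBS arrays for 6 members (Ctsa, Ctsb, Ctsd, Ctsk, Ctss and Ctsz), where 14.6% of 20656 genes did so. They lay below for 0 members, where 13.2% of genes did. Ctsb lost this order after quantile normalization, with -0.023 for PPE in sham mice, and the second probe of Ctsa did not have it. The share among bright genes alone was not counted. Both ORX arrays lay above both sham arrays for 3 members (Ctse, Ctsh and Ctsl) beside 18.4% of genes, and below for 0 beside 21.3%. These counts describe 4 pools.

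The only test that 4 arrays allow is an additive fit of surgery and agent with limma, which has 1 residual degree of freedom and assumes no interaction. No gene of 20656 passed an adjusted p of 0.05 for PPE or ORX (0.00% in each direction), so no cathepsin was called. At an unadjusted p under 0.05 there were 1161 genes for PPE (5.62%) with 3 members, and 1638 genes for ORX (7.93%) with 1 member. For PPE the 3 were Ctsk at 0.87 ± 0.133 (SE; limma adjusted p = 0.751), Ctsd at 0.70 ± 0.127 (adjusted p = 0.751) and Ctss at 0.79 ± 0.169 (adjusted p = 0.755). For ORX it was Ctse at 1.21 ± 0.298 (limma adjusted p = 0.581), a value that takes in its sham/PBS signal below background. By normexp Ctse was at 0.18 ± 0.111 and no longer under an unadjusted p of 0.05, while Ctss, Ctsh and Ctsk were, again with no gene past the adjusted threshold. The difference between the PPE effects of the surgeries, for which the arrays give no error, was -0.50 for Ctsc and -0.43 for Ctss (ORX minus sham), and lay between -0.25 and 0.23 for 7 others. That of Ctse was -1.06 with its dim sham/PBS value and -0.23 by normexp, where Ctsc was at -0.48 and Ctss at -0.42.

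**Figure D3:**
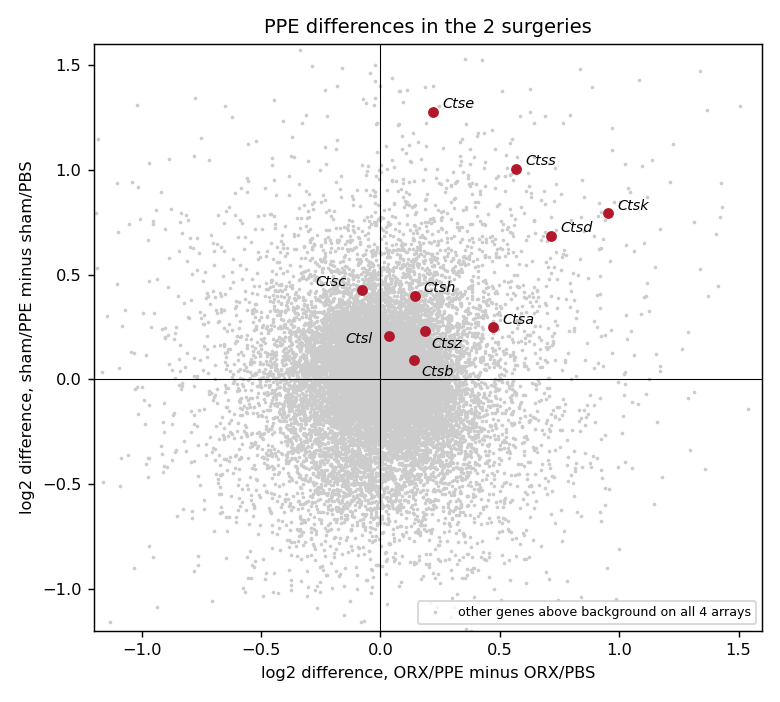
Log2 PPE difference in ORX mice (horizontal) against that in sham mice (vertical) for the 10 cathepsins (red) and for the 19320 genes above background on all 4 arrays (grey; 79 lie outside the axes). Ctsd and Ctsk have like differences in both surgeries, at 0.72 and 0.68 and at 0.95 and 0.79, while Ctse and Ctsc stand off 0 mainly in sham mice.

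The further probes of 4 members show how far a value depends on the probe. For Ctsh, the probes numbered 2 and 3 by brightness lie over 3002 and 1152 bases of build mm9, so that each crosses an intron. They matched the brightest probe in sham mice, with PPE differences of 0.42 and 0.38, but gave -0.024 and -0.034 in ORX mice. The fourth, on another transcript, gave 0.47 in ORX mice and 0.10 in sham mice, and the fifth was not above background on every array. For Ctsc, the second probe gave 0.049 in ORX mice and 0.35 in sham mice, close to the brightest, and its probe 3 gave 0.52 and 0.038, the opposite order. The second probe of Ctsl, on a clone transcript, gave -0.089 in ORX mice and 0.38 in sham mice. The second probe of Ctsa, on transcript ENSMUST00000146525, had 0.140 on ORX/PPE, 0.203 on ORX/PBS, 0.174 on sham/PPE and 0.285 on sham/PBS, and its PPE differences were -0.53 and -0.71, opposite in sign to the brightest probe. The 6 other members had 1 probe each, so Ctsd, Ctsk and Ctss have no second probe to set beside the first. On mm9, the probe of Ctsk lies at chr3:95313165-95313224, that of Ctss near it at chr3:95360162-95360221, that of Ctsd on the minus strand at chr7:149561962-149562021 and that of Ctse at chr1:133571990-133572049.

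**Figure D4:**
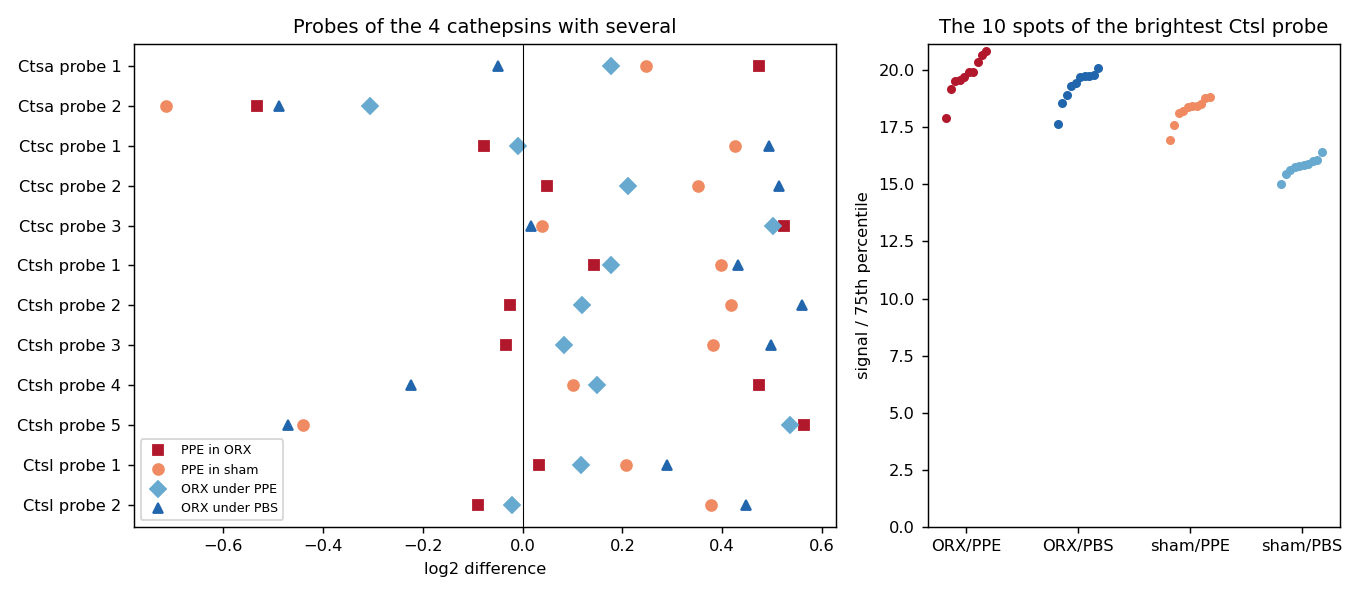
Left, log2 differences (horizontal axis) of every probe of the 4 cathepsins with several, numbered by brightness, in the 4 comparisons. Right, scaled signal of the 10 spots of the brightest Ctsl probe on each array, with the sham/PBS spots between 15.0 and 16.4, below the spots of the other 3 arrays.

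For the 3 members with the widest range, the genes nearest in pattern were found by the root mean square difference of centred log2 values over the 4 arrays, among genes above background on all 4. Nearest to Ctss was Cd68, a lysosomal membrane glycoprotein of macrophages, at a distance of 0.024, then Klhl4 at 0.049 and the Fc receptor Fcgr4 at 0.061. On its brightest probe, Cd68 had 5.06 on ORX/PPE, 3.53 on ORX/PBS, 4.31 on sham/PPE and 2.21 on sham/PBS. This is the same order of arrays as Ctss. Its PPE differences were 0.52 in ORX mice and 0.97 in sham mice on that probe. Probes 2 and 3 of Cd68 gave 0.23 and 0.19 in ORX mice and 1.03 and 0.86 in sham mice. For ORX under PBS probe 3 gave 1.02, so there ORX/PBS lay above sham/PPE, unlike the order of Ctss. Nearest to Ctsk were the activin binder Fst at 0.047, Ly6i at 0.065 and the matrix glycoprotein Tnc at 0.072. For Ctse the pattern takes in the dim sham/PBS value, which sets its range, and which moves with the background correction. Nearest to it on the processed signal were the B cell antigen Ms4a1 at 0.17, the clock factor Dbp at 0.19 and Galnt14 at 0.22. Ms4a1 had 3.98 on ORX/PPE, 4.14 on ORX/PBS, 2.83 on sham/PPE and 1.42 on sham/PBS, so its ORX arrays stood high as those of Ctse did.

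Of 5 genes on a list of other cathepsins and legumain, 0 passed 2-fold in any comparison. Ctsf, Ctso, Ctsw and the related protease Lgmn were above background on all 4 arrays, and their list had medians of 0.074 for PPE in ORX mice, 0.27 for PPE in sham mice, 0.019 for ORX under PPE and 0.28 for ORX under PBS. Ctsf, a cysteine cathepsin, was higher in ORX mice by 0.31 under PPE and 0.46 under PBS, and Ctso differed under PPE by 0.047 in ORX mice and 0.48 in sham mice. Lgmn, which processes several cathepsins, was higher under PPE by 0.22 in ORX mice and 0.21 in sham mice. Of 9 placental cathepsins of rodents, 7 were above background on no array, and 1 dim one, Cts6, was at least 2-fold lower for ORX under PBS. Among 31 lysosomal hydrolases, 0 passed 2-fold in any comparison and the PPE medians were 0.067 in ORX mice and 0.15 in sham mice, below those of the cathepsins. Acp5, the tartrate-resistant acid phosphatase of macrophages and osteoclasts, was at 0.48 and 0.64, and Lipa, the acid lipase, at 0.42 and 0.54. Of 22 genes of lysosomal membrane and acidification, 1 passed 2-fold in sham mice and 0 in ORX mice: Atp6v0d2, a proton pump subunit of macrophages and osteoclasts, at 0.53 in ORX mice and 1.01 in sham mice. The transcription factor list had medians of 0.072 in ORX mice and 0.21 in sham mice, and Tfeb itself was at -0.024 and 0.048 on its brightest probe. The further Tfeb probes gave 0.010, 0.28 and -0.25 in ORX mice and 0.34, 0.0079 and -0.020 in sham mice, so its value depends on the probe.

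Cathepsin inhibitors differed mainly in sham mice. Of 11 measured, 0 passed 2-fold under PPE in ORX mice and 5 stood 2-fold higher or more in sham mice, where 1.26% of genes did, with medians of 0.033 and 0.47. By normexp only Stfa2 and Stfa2l1 of the 5 passed 2-fold in sham mice. The stefins, which are made by neutrophils and other myeloid cells, led: Stfa2l1 had 0.346 on ORX/PPE, 0.338 on ORX/PBS, 0.643 on sham/PPE and 0.154 on sham/PBS. Its PPE difference was 0.033 in ORX mice and 2.07 in sham mice, and that of Stfa2 0.26 and 1.90. Cst3, the secreted cystatin C, was at 0.12 and 0.53. The stefin genes are close copies of each other, and how far their probes share signal was not tested. Of 8 MHC class II genes that work with cathepsin S, 0 passed 2-fold, and the medians were 0.22 for ORX under PPE and 0.59 for ORX under PBS. Cd74, the invariant chain that cathepsin S trims, was higher in ORX mice by 0.27 under PPE and 0.61 under PBS. Napsa, the aspartic protease that processes surfactant precursors with cathepsin H, had PPE differences of 0.017 in ORX mice and 0.60 in sham mice, and its second probe -0.079 and 0.72. The surfactant gene Sftpc was at 0.14 in ORX mice and 0.036 in sham mice. Sftpb was at 0.12 and 0.024 on its brightest probe but at 0.035 and 0.35 on its second, so it depends on the probe. Sorting genes had medians within 0.0855 of 0 in all 4 comparisons. Grn, the progranulin gene, differed by -1.18 for ORX under PPE and -0.90 under PBS with its brightest probe, but another probe gave 0.18 and 0.24 and a further one -0.15 and 0.28, so no direction is drawn from it.

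Sums of cell markers differed between the arrays too. The 13 alveolar macrophage markers on the array, all above background on every array, summed to a scaled signal of 150.8 on ORX/PPE, 99.1 on ORX/PBS, 126 on sham/PPE and 70.8 on sham/PBS. That is the order of arrays seen for Ctsd, Ctsk, Ctss and Ctsz, and the share of all genes with this order was not counted. A sum is weighted towards the bright markers. The median PPE difference of the 13 markers was 0.12 in ORX mice, with 9 above 0 and 4 below. In sham mice it was 0.52, with 12 above 0 and 1 below. The 8 markers of lipid-associated macrophages summed to 106, 103, 111 and 89.5 in the same order of arrays. Their PPE medians were 0.27 in ORX mice, with 3 of 8 at least 2-fold higher beside 0.695% of genes, and 0.69 in sham mice, with 2 of 8 beside 1.26%. In ORX and sham mice these counts were 2 and 3 of 13 for alveolar macrophage markers and 0 and 6 of 11 for neutrophil markers. For monocytes and interstitial macrophages they were 0 and 0 of 12. The 12 of monocytes and interstitial macrophages summed to 156, 154, 169 and 134. Neutrophil markers, 10 of 11 above background on all 4 arrays, summed to 127 on ORX/PPE, 108 on ORX/PBS, 184 on sham/PPE and 91.3 on sham/PBS. The 6 B cell markers summed to 22.7, 20.9, 16.3 and 10.7, with both ORX arrays above both sham arrays. Ctse, Ctsh and Ctsl had that order on the processed signal of their brightest probes, as did 18.4% of genes. By normexp Ctse did not have it, at 0.30 for ORX/PBS and 0.45 for sham/PPE, each over sham/PBS. The 10 markers of alveolar type 2 cells summed to 1155, 1044, 1203 and 1100. The part of these cells in the cathepsin signals was not tested.

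**Figure D5:**
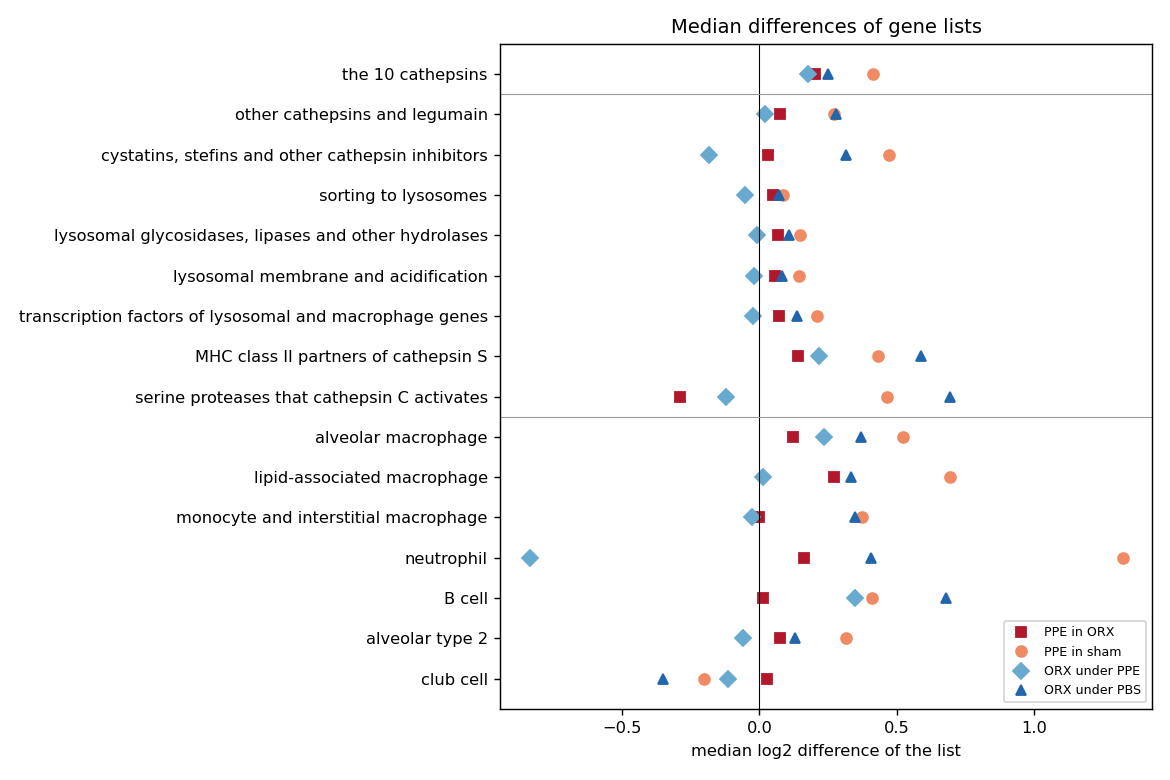
Median log2 difference (horizontal axis) of the 10 cathepsins, of 8 related gene lists and of 7 lists of cell markers in the 4 comparisons. The cathepsins lie above 0 in all 4 comparisons, at 0.20 and 0.41 for PPE and 0.18 and 0.25 for ORX, and the neutrophil list has the widest spread.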

How the data were processed

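Lung RNA pooled per group was labelled with Cy3 and hybridised to 4 arrays, per the labels. Per the file headers, the scanner software (Feature Extraction 10.7.1.1) subtracted background and left spot intensity on a linear scale, not normalized between arrays. The submitters' processing notes name version 9.5.1.1 instead. The series' value table also holds deposited intensity values, with a median of 71.5 on each array. On the log2 scale these deposited values followed the spot signals with r of at least 0.9998, so their direction is settled. Their scaling is not named in the sources used here. The cathepsin differences from them were nearly those after quantile normalization, as for Ctss under PPE in sham mice, at 0.936 and 0.935.

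Control spots and outlier spots (46 on ORX/PPE, 54 on ORX/PBS, 40 on sham/PPE and 31 on sham/PBS, of 59305 spots) were left out. No spot was saturated. Replicate spots were averaged and set against the 75th percentile of their array, on the log2 scale. The GRCm38.p6 gene table named 32982 of 56605 probes from an accession, 10218 from a symbol and 520 from a synonym. A further 2574 retained the file's own name and 10293 stayed unnamed. Probe coordinates are on mm9. Where a probe was well above background on 1 of 2 arrays, its fold is a bound against the higher of the dim value and the lowest signal above background. With 1 array per group there are no replicates, and precision is bounded by how few arrays there are.

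Limma 3.58.1 (lmFit and eBayes, in R 4.3.3) fitted the additive model to the 20656 genes above background on 2 arrays or more. Benjamini-Hochberg adjustment ran over all of them. Simulated data, with equal noise for all genes and no interaction, served to check that the sizes of planted differences were recovered. That check does not show how many real differences the fit would call. Other settings were quantile normalization, normexp (offset 50), centring on the median, the value table, filters on dim probes, other probes and a 1.5-fold threshold. Named genes are all members, listed genes past 2-fold (at most 3 per direction) or the extremes of a list, and the 3 genes nearest in pattern to each of 3 members. Acp5, Lipa, Lgmn, Cst3, Cd74, Tfeb and the further probes of Grn, Cd68 and Tfeb were described after their values had been seen where that rule left them out. The members and lists were chosen with earlier results of these data known. Other steps used Python 3.11.15, numpy 2.4.6, pandas 2.3.3 and matplotlib 3.10.9.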

Additional observations from a re-analysis of the deposited data

Results flagged for a closer look

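For the genes below, the effect of PPE had opposite signs in the surgeries, or that of ORX opposite signs under the agents, by more than the spot error for a cathepsin or the SD over all genes for another gene. With 1 array per group the difference (ORX minus sham mice for PPE, or PPE minus PBS for ORX) was not tested. Ctsc differed under PPE by -0.077 in ORX mice and 0.43 in sham mice, a difference of -0.50. This depends on the probe: its second probe gave 0.049 and 0.35, with no opposite signs (-0.30), and its probe 3 gave 0.52 and 0.038, in the opposite order (0.49). Of the serine proteases that cathepsin C activates, the mast cell protease Mcpt4 was at -0.66 in ORX mice and 0.74 in sham mice (a difference of -1.40), and for ORX at -0.49 under PPE and 0.91 under PBS, which by arithmetic is the same -1.40. By normexp the signs of Mcpt4 stayed opposite and its difference was -0.81. The chymase Cma1 was at -0.41 and 0.51 for PPE (-0.92), and the tryptase Tpsb2 ran the other way, at 0.64 in ORX mice and -0.34 in sham mice for PPE and at 0.58 under PPE and -0.40 under PBS for ORX (0.98 in each case). The median of that list was -0.29 in ORX mice and 0.46 in sham mice (-0.75). The stefins stood apart for ORX: Stfa2l1 was at -0.89 under PPE and 1.14 under PBS (-2.03), Stfa2 at -0.71 and 0.93 (-1.64) and Stfa1 at -0.59 and 0.95 (-1.54). By normexp these differences were -1.63, -1.29 and, for the dim Stfa1 probe, -0.79. The myeloid factor Spi1, from a dim probe, was at -0.34 in ORX mice and 0.35 in sham mice for PPE (-0.69). By normexp it was at 0.069 and 0.26, with no opposite signs.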

How the results depend on the processing

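No paired analysis was possible because each group holds 1 array, and for the same reason no replicate could be left out. Without replicates these values describe pools, and the dim Ctse probe gives only bounds. For PPE in sham mice, the median of the members (0.41) was 0.33 by quantile normalization and by the value table, 0.47 by median centring and 0.28 over the mean of all probes. The value table gave nearly the same member differences as quantile normalization, so their likeness is not independent, though each is counted as a setting below. The 2 members at least 2-fold higher there became 0 by normexp, 1 by quantile normalization, 1 by the value table, 1 with probes above background on all 4 arrays, 0 of 4 on the second brightest probe and 4 at 1.5-fold. For PPE in ORX mice, the median of 0.20 turned to -0.057 over the second brightest probes of 4 members, which leaves out the other 6, and 2 members passed at 1.5-fold where 0 passed 2-fold. For ORX under PBS, the median of 0.25 was 0.31 by median centring, 0.19 over the mean of all probes and 0.48 over the second brightest probes. Its count of 1 became 0 by normexp, with probes above background on all 4 arrays and on the second brightest probe, and 2 at 1.5-fold. For ORX under PPE, the median of 0.18 was 0.049 over the second brightest probes, and 1 member passed at 1.5-fold. The other medians and the counts of 0 lower members held under the settings run. The additive fit called 0 genes in each of its 5 settings, with 3 to 5 members at an unadjusted p under 0.05 for PPE and 1 to 3 for ORX. The ORX value of Ctse, 1.21, became 0.18 by normexp. Of 192 single differences that a setting could alter, 70 moved by more than the spot error and 122 by less. Among those that moved by less was Ctse for ORX under PPE, 0.68 on the processed signal and 0.064 by normexp, because the spot error of dim probes is wide. In all, 20 changed sign: for Ctsa under PPE the mean of all probes gave -0.030 in ORX and -0.23 in sham mice and the second brightest probe -0.53 and -0.71, and for Ctsa under ORX with PPE they gave -0.065 and -0.31; Ctsa for ORX under PBS was 0.011 by median centring. Ctsb for PPE in sham mice was -0.023 by quantile normalization and by the value table. For Ctsc, the mean of all probes and the second brightest gave 0.17 and 0.049 for PPE in ORX mice, and 0.23 and 0.21 for ORX under PPE, where normexp gave 0.0034 and quantile normalization and the series' deposited values 0.018. Ctsh for PPE in ORX mice was -0.024 on the second brightest probe, and Ctsl was -0.028 over the mean of probes and -0.089 on the second brightest, which also gave -0.021 for ORX under PPE. The cause of these shifts was not tested.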
